A study of Mus musculus with 4 samples.

Results

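The effect of cyclophosphamide (CPA) on RNA levels in mouse tooth germs cultured at 37 °C was examined by comparing the 37°C_CPA library with the 37°C_DMSO library across all genes, 2 of the 4 libraries of the series. The groups were 37°C_CPA and its solvent control 37°C_DMSO, and 25°C_CPA with its control 25°C_DMSO, and each of the 4 conditions was a single library from more than 5 tooth germs of ICR mice. The treatment lasted 3 days. The study's text gives tooth germs of embryonic day 14.5 and 2.5 mM CPA, whereas the protocols in the sample records give dissection at E13.5, 0.25 mM CPA and 4 further days without CPA, and these sources could not be reconciled on dose, age or later culture. The question was which genes outside the p53, DNA repair and cell cycle groups moved with CPA, and which were lowered.

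CPA is a nitrogen mustard prodrug whose active products crosslink DNA strands, which blocks replication forks and transcribing polymerases and activates p53. A tooth germ consists of dental epithelium, from which the ameloblasts arise, and dental mesenchyme, from which the odontoblasts and the surrounding alveolar bone arise. A dissected germ also carries macrophages, endothelium and adjoining muscle and bone precursors. CAGE (cap analysis of gene expression) counts the 5′ ends of capped RNAs, and it therefore measures transcripts at their start sites.

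The genes lowered in 37°C_CPA, relative to 37°C_DMSO, included 7 of 17 measured bone matrix genes, 7 of 16 of the sarcomere and 9 of 43 of macrophages, and a set of genes led by Ano3, Acaa1b, Celf5 and Cox6b2 was higher. The gene lists were chosen with earlier results of these data known, so their counts are descriptions and not tests. A gene was measured if the higher of both libraries held at least 50 counts, and called higher or lower at a normalized fold of 2 or more. Of 13307 measured genes, 320 were higher (2.4%) and 212 were lower (1.59%) in 37°C_CPA than in 37°C_DMSO. Under a mean of 10 CPM, 4.18% of 3085 measured genes were higher and 5.15% were lower. Every list count below is to be read beside these shares. Log2 folds lay below 0 in 52.7% of all measured genes, the share to set beside each count of members below 0. Of the 12776 measured genes outside the p53, repair and cell cycle groups, 187 were higher (1.46%) and 212 were lower (1.66%), so that all 212 lowered genes lay outside these groups. Among the 531 measured genes of the groups 133 were higher and 0 were lower. At 25 °C, CPA gave 18 higher (0.142%) and 15 lower genes (0.118%) among 12704 measured ones, all of them outside these groups (0.148% and 0.123% of 12194). The SD of the log2 folds over all measured genes was 0.46 at 37 °C and 0.22 at 25 °C. With 1 library per condition no test was possible, and every interval given here is a 95% exact binomial interval that covers counting error only. The difference between both temperatures was not tested.

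**Figure D1:**
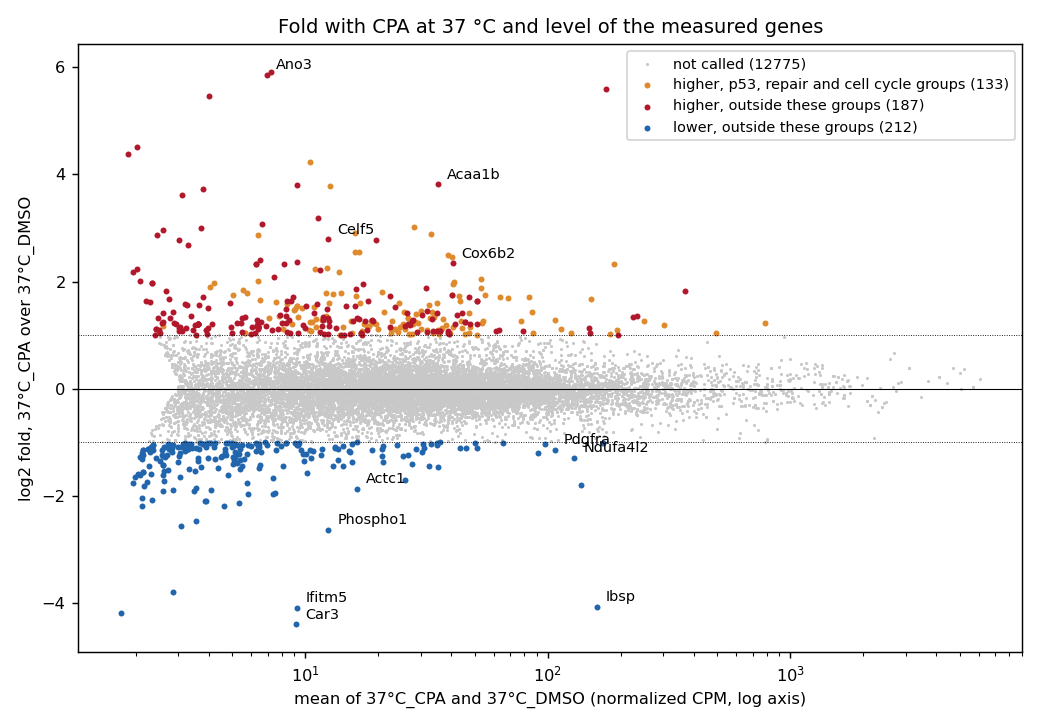
Each point is 1 of the 13307 genes measured at 37 °C, with the mean normalized CPM of 37°C_CPA and 37°C_DMSO on a log x axis and the log2 fold of 37°C_CPA over 37°C_DMSO on the y axis, and dotted lines at 2-fold. The 187 genes higher outside the p53, repair and cell cycle groups are red, the 133 higher genes of these groups orange, the 212 lower genes blue, and 159 of the 212 lower genes sit under 10 CPM.

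The totals were 15255885 counts in 37°C_CPA, 16449264 in 37°C_DMSO, 15297204 in 25°C_CPA and 15101186 in 25°C_DMSO. A floor of 3 counts, used in place of a count of 0, stood for 0.192 CPM in 37°C_CPA and 0.177 CPM in 37°C_DMSO. Of the dental epithelium and dental mesenchyme marker lists, all 40 and all 31 genes in the table were measured, so markers of both tissues of the tooth germ were present. Xist, the RNA of the inactive X chromosome, had 2562 counts in 37°C_CPA, against 1529 in 37°C_DMSO, and 1711 in 25°C_CPA, against 2674 in 25°C_DMSO, and Ddx3y, a Y-linked helicase gene, had 229 counts in 37°C_CPA, against 424 in 37°C_DMSO, and 366 in 25°C_CPA, against 137 in 25°C_DMSO. Xist was thus above and Ddx3y below its control value in 37°C_CPA, neither by 2-fold. The order was the opposite in 25°C_CPA against 25°C_DMSO, where Ddx3y differed by more than 2-fold and Xist by less. The part of the sexes of the embryos in the results was not tested. In bulk RNA, fewer cells of a type and less RNA per cell cannot be told apart. Without scaling to library size, the median log2 fold of all genes was -0.14 in place of -0.02, and 252 genes were higher and 331 lower, or 43.2% higher among the called genes in place of 60.2%.

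The DNA around the annotated starts of leading genes is shown because CAGE counts transcripts at their starts. They were the first 4 lowered genes, Ibsp, Ifitm5, Phospho1 and Actc1, and the first raised gene, Acaa1b, that have an entry with a single start in the RefSeq table of GRCm38.p6, each with 250 bases before and 50 after the start, written along the gene's strand. The windows lie at chr5:104299037-104299336 (plus strand) for Ibsp, chr7:140950194-140950493 (minus strand) for Ifitm5, chr11:95824250-95824549 (plus strand) for Phospho1, chr2:114052826-114053125 (minus strand) for Actc1 and chr9:119157044-119157343 (minus strand) for Acaa1b. Capitals mark matches, on either strand, to an E-box (CAGCTG, the site form of MyoD-class factors), a TATA box (TATAAA), a GC box (GGGCGG), a RUNX site (TGTGGT), a MEF2 site and a p53 half-site.
Ibsp: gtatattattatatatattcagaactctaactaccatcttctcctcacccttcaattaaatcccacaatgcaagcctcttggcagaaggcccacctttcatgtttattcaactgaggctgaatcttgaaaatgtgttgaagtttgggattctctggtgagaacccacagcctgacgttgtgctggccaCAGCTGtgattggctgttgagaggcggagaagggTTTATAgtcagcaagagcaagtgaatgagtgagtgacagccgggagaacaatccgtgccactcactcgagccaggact
Ifitm5: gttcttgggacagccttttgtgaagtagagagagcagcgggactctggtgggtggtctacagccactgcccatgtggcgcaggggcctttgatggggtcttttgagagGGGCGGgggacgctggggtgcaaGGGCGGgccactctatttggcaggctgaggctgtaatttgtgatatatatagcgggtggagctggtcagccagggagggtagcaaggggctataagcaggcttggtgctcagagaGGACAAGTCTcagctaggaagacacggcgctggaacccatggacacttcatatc
Phospho1: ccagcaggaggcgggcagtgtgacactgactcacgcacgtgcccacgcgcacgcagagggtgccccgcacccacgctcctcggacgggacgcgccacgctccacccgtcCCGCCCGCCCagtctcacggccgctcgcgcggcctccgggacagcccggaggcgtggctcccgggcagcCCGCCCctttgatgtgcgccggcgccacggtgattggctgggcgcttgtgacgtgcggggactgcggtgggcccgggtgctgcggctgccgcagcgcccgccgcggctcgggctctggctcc
Actc1: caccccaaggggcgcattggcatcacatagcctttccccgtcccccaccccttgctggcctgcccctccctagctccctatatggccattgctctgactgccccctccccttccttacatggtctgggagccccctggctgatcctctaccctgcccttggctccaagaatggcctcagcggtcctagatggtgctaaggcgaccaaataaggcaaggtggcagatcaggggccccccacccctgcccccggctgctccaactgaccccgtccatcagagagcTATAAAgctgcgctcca
Acaa1b: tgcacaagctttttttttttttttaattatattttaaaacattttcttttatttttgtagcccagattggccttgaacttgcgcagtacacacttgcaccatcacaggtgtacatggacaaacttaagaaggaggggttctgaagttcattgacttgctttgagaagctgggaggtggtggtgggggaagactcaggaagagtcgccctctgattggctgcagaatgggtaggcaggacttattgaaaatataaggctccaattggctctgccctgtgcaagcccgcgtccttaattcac
The Ibsp window held 1 E-box from base 189 and 1 TATA box from base 223 of the 300 bases. That of Ifitm5 held GC boxes from bases 109 and 132 and a p53 half-site from base 247, and that of Phospho1 held 3 GC boxes, 2 of which overlap, from bases 110, 114 and 179. The Actc1 window held a TATA box from base 284, downstream of the annotated start, and the Acaa1b window held none of the 6 motifs. A match is a description of the letters and not a bound site.

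Genes that build and mineralize the bone and dentin matrix included several of the most strongly lowered genes. Of 17 measured genes of this list, 7 were lower and none was higher (median log2 fold -0.89, against -0.02 for all measured genes), and 13 of 17 lay below 0. Ibsp, which encodes bone sialoprotein, a nucleator of hydroxyapatite, had 281 counts in 37°C_CPA, against 5098 in 37°C_DMSO, and 686 in 25°C_CPA, against 390 in 25°C_DMSO. It fell 16.8-fold (95% interval 14.9 to 19) at 37 °C. The mm9 annotation places it on chromosome 5 from 104728190 to 104740488. Ifitm5, an osteoblast membrane protein of mineralizing bone, had 16 counts in 37°C_CPA, against 295 in 37°C_DMSO, and 83 in 25°C_CPA, against 55 in 25°C_DMSO, and fell 17-fold (95% interval 10.3 to 30.2). Phospho1, the phosphatase that releases phosphate inside matrix vesicles, had 54 counts in 37°C_CPA, against 363 in 37°C_DMSO, and 117 in 25°C_CPA, against 100 in 25°C_DMSO, and fell 6.21-fold (95% interval 4.65 to 8.42). In all 3 genes 37°C_DMSO was the highest of the 4 libraries and 37°C_CPA the lowest.

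Dmp1, an acidic matrix protein of odontoblasts and osteocytes, fell 3.69-fold (95% interval 2.21 to 6.47), on 19 counts in 37°C_CPA against 76 in 37°C_DMSO. Alpl, the alkaline phosphatase that removes pyrophosphate, had 681 counts in 37°C_CPA, against 1486 in 37°C_DMSO, and 345 in 25°C_CPA, against 491 in 25°C_DMSO, and fell 2.02-fold (95% interval 1.84 to 2.21). Smpd3, a sphingomyelinase needed for mineralization, fell 2.01-fold (95% interval 1.81 to 2.24), and Omd, which encodes osteomodulin, fell 2.13-fold (95% interval 1.47 to 3.14). The intervals of Alpl, Smpd3 and Omd reach below 2-fold. Not every gene of the mineralized matrix moved this way. Spp1, which encodes osteopontin, had 3041 counts in 37°C_CPA, against 2463 in 37°C_DMSO, and 116 in 25°C_CPA, against 93 in 25°C_DMSO and was not called (log2 fold 0.42), and Bglap3, an osteocalcin-related gene, had 436 counts in 37°C_CPA, against 442 in 37°C_DMSO (log2 fold 0.10). Ostn, picked with its values in view, encodes the secreted peptide osteocrin and had 0 counts in 37°C_CPA, against 59 in 37°C_DMSO, and 20 in 25°C_CPA, against 17 in 25°C_DMSO, which is at least 18.2-fold lower by the floor of 3 counts, with a counting interval that reaches down to 5.92-fold.

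The regulators of these cells stayed short of the call. Of 17 measured osteoblast regulators 0 were called, while all 17 had log2 folds below 0 (median -0.37), against 52.7% of all measured genes. Sp7, which encodes the osteoblast factor osterix, had 76 counts in 37°C_CPA, against 143 in 37°C_DMSO, and 71 in 25°C_CPA, against 51 in 25°C_DMSO (log2 fold -0.80), and Runx2, the factor that starts osteoblast differentiation, had 649 counts in 37°C_CPA, against 880 in 37°C_DMSO, and 691 in 25°C_CPA, against 578 in 25°C_DMSO (log2 fold -0.32). Pth1r, the parathyroid hormone receptor, had the lowest value of the list at -0.83. Of 11 measured osteoclast genes 0 were called and 7 lay below 0 (median -0.17). With CPA at 25 °C the bone matrix median was 0.21 over 14 genes, and the osteoblast regulator median was 0.07.

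**Figure D2:**
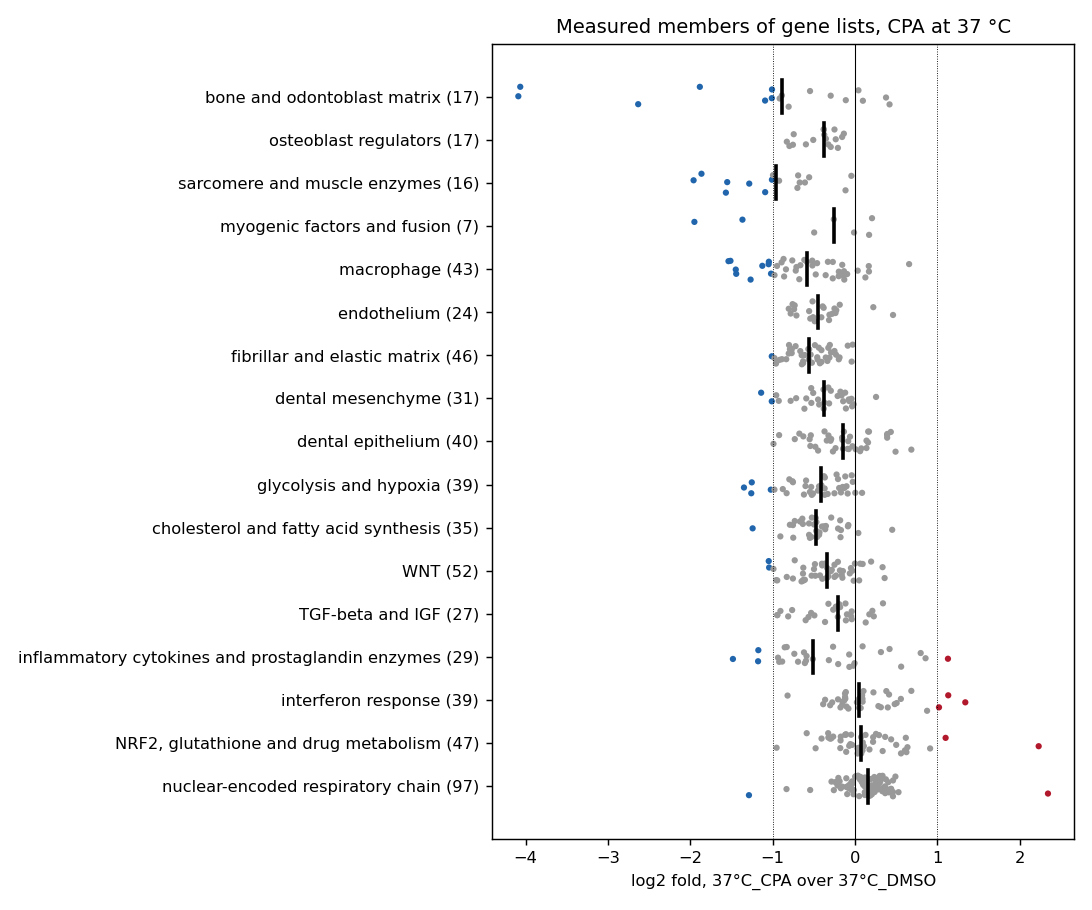
Each point is a measured member of a gene list, with the log2 fold of 37°C_CPA over 37°C_DMSO on the x axis, the lists with their number of measured genes down the page, called members in blue (lower) or red (higher), and a black bar at the list median. Ifitm5 lies at -4.09 in the bone matrix list and the sarcomere list has a median of -0.96, whereas the members of the respiratory chain list lie around a median of 0.16.

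The collagens and other matrix proteins of the mesenchyme were abundant and lay below 0 with few calls. Of 46 measured genes of the fibrillar and elastic matrix list, 1 was lower and 0 were higher, and all 46 had log2 folds below 0 (median -0.56). The summed level of the list was 6507 CPM in 37°C_CPA, against 10477 CPM in 37°C_DMSO, and 4404 CPM in 25°C_CPA, against 4592 CPM in 25°C_DMSO. Col1a1, the first chain of type I collagen, had 24034 counts in 37°C_CPA, against 49104 in 37°C_DMSO, and 8699 in 25°C_CPA, against 8264 in 25°C_DMSO, with a fold of 0.530 (95% interval 0.522 to 0.538) at 37 °C, just short of the call. Col3a1, type III collagen, had 8414 counts in 37°C_CPA, against 17956 in 37°C_DMSO, and 9306 in 25°C_CPA, against 9332 in 25°C_DMSO, with a fold of 0.507 (95% interval 0.494 to 0.521). Col5a2, a chain of type V collagen, had 4635 counts in 37°C_CPA, against 9714 in 37°C_DMSO, and 3953 in 25°C_CPA, against 4110 in 25°C_DMSO, with a fold of 0.517 (95% interval 0.499 to 0.535). None of these intervals includes a fold of 1, although they cover counting error only. The gene that passed the call was Tnc, which encodes tenascin C of dental mesenchyme, with 1747 counts in 37°C_CPA, against 3814 in 37°C_DMSO, and 655 in 25°C_CPA, against 730 in 25°C_DMSO and a fall of 2.02-fold (95% interval 1.90 to 2.13), whose interval reaches below 2-fold. The call count depended on the setting, with 6 lower genes without scaling, 21 at a fold of 1.5, and 0 with scaling to Gapdh, where 45 of 46 lay below 0.

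Of all measured genes 1.59% were lower, with 5.15% under 10 CPM. Over 32 measured collagen genes of all types, 3 were lower and 0 were higher (median -0.44), and 8 were lower without scaling. The 3 were Col22a1, a collagen of muscle and tendon junctions (12 counts in 37°C_CPA, against 59 in 37°C_DMSO), Col24a1, a fibrillar collagen of bone (49 counts in 37°C_CPA, against 121 in 37°C_DMSO), and Col9a2, a collagen of cartilage (53 counts in 37°C_CPA, against 125 in 37°C_DMSO). Col18a1, a basement membrane collagen, had 2455 counts in 37°C_CPA, against 1920 in 37°C_DMSO (log2 fold 0.47), and Col2a1, the main cartilage collagen, had 125 counts in 37°C_CPA, against 82 in 37°C_DMSO (log2 fold 0.72). Type I collagen genes stand in the bone matrix, fibrillar matrix and collagen lists, and Tnc in the fibrillar and dental mesenchyme lists, so these counts are not separate results.

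Genes of the contractile apparatus of skeletal muscle formed the next lowered group. Of 16 measured genes of the sarcomere and muscle enzymes list, 7 were lower and 0 were higher, and all 16 lay below 0 (median -0.96). Actc1, the cardiac alpha actin that is also made in embryonic skeletal muscle, had 110 counts in 37°C_CPA, against 434 in 37°C_DMSO, and 311 in 25°C_CPA, against 264 in 25°C_DMSO. It fell 3.64-fold (95% interval 2.95 to 4.53), and 37°C_CPA was the lowest of the 4 libraries. Des, which encodes the muscle intermediate filament desmin, had 80 counts in 37°C_CPA, against 257 in 37°C_DMSO, and 60 in 25°C_CPA, against 49 in 25°C_DMSO, and fell 2.97-fold (95% interval 2.30 to 3.86). The other 5 were troponin genes, whose products switch contraction on and off with calcium. They fell 3.89-fold for Tnnt1, 2.93-fold for Tnni1, 2.44-fold for Tnnt3, 2.13-fold for Tnnt2 and 2.01-fold for Tnnc1. The 37°C_DMSO counts behind them were 156 for Tnnt1, 54 for Tnni1, 95 for Tnnt3, 90 for Tnnt2 and 109 for Tnnc1, so most rest on few counts, and 3 of the 7 calls of this list remained where the interval had to lie beyond 2-fold. Acta1, the skeletal alpha actin, had 191 counts in 37°C_CPA, against 334 in 37°C_DMSO (log2 fold -0.69), and Myl4, an embryonic myosin light chain, had 75 counts in 37°C_CPA, against 88 in 37°C_DMSO (log2 fold -0.12).

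Of the 7 measured myogenic factors and fusion genes 2 were lower and 0 were higher (median -0.26). With no minimum count, which adds genes too low to count as measured, 5 of 10 were lower (median -0.93). In that setting 541 of all 15805 genes were lower. With at least 200 counts, 2 of 6 genes of the list were lower (median -0.38). Myog, the factor that drives myoblasts into differentiation, had 48 counts in 37°C_CPA, against 201 in 37°C_DMSO, and 199 in 25°C_CPA, against 144 in 25°C_DMSO, and fell 3.87-fold (95% interval 2.81 to 5.41). Mef2c, its partner in muscle and a regulator of bone and endothelium, had 136 counts in 37°C_CPA, against 380 in 37°C_DMSO, and 217 in 25°C_CPA, against 236 in 25°C_DMSO, and fell 2.58-fold (95% interval 2.12 to 3.16). With CPA at 25 °C the sarcomere median was 0.26 over 13 genes, of which 2 were higher and 0 were lower.

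Macrophage genes were also among the lowered genes. Of 43 measured genes, 9 were lower and 0 were higher, and 38 of 43 lay below 0 (median -0.58). Aif1, a calcium-binding protein of macrophages, had 109 counts in 37°C_CPA, against 321 in 37°C_DMSO, and 95 in 25°C_CPA, against 76 in 25°C_DMSO, and fell 2.72-fold (95% interval 2.18 to 3.41). Ms4a6c, a membrane protein of the myeloid lineage, had 68 counts in 37°C_CPA, against 201 in 37°C_DMSO, and 40 in 25°C_CPA, against 28 in 25°C_DMSO, and fell 2.73-fold (95% interval 2.06 to 3.65). Csf1r, the receptor for the macrophage growth factor CSF1, had 244 counts in 37°C_CPA, against 547 in 37°C_DMSO, and 222 in 25°C_CPA, against 213 in 25°C_DMSO, and fell 2.07-fold (95% interval 1.78 to 2.42). The others were Coro1a, an actin regulator of leukocytes, the NADPH oxidase subunits Ncf1 and Ncf4, Dock2, which drives leukocyte migration, Ptprc, the pan-leukocyte CD45, and the protease Ctss, with falls between 2.03-fold (Ctss) and 2.90-fold (Coro1a). Other members with many counts were not called. Lyz2, which encodes lysozyme, had 5854 counts in 37°C_CPA, against 8119 in 37°C_DMSO (log2 fold -0.36), Pf4 had 2445 counts in 37°C_CPA, against 3194 in 37°C_DMSO (log2 fold -0.27), and Cd68, a lysosomal protein, had 548 counts in 37°C_CPA, against 544 in 37°C_DMSO (log2 fold 0.13). The summed level of the list was 1409 CPM in 37°C_CPA, against 1876 CPM in 37°C_DMSO. Where the interval had to lie beyond 2-fold, 2 of the 9 calls remained, and at a fold of 3 none did, against 4 in the bone matrix list.

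Of 24 measured endothelial genes 0 were called and 22 of 24 lay below 0 (median -0.45). Cldn5, the tight junction protein of vessels, had 286 counts in 37°C_CPA, against 524 in 37°C_DMSO, and 207 in 25°C_CPA, against 236 in 25°C_DMSO (log2 fold -0.76), Cdh5, which encodes the endothelial VE-cadherin, had 438 counts in 37°C_CPA, against 564 in 37°C_DMSO (log2 fold -0.25), and Eng, which encodes endoglin, had 356 counts in 37°C_CPA, against 280 in 37°C_DMSO (log2 fold 0.46).

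**Figure D3:**
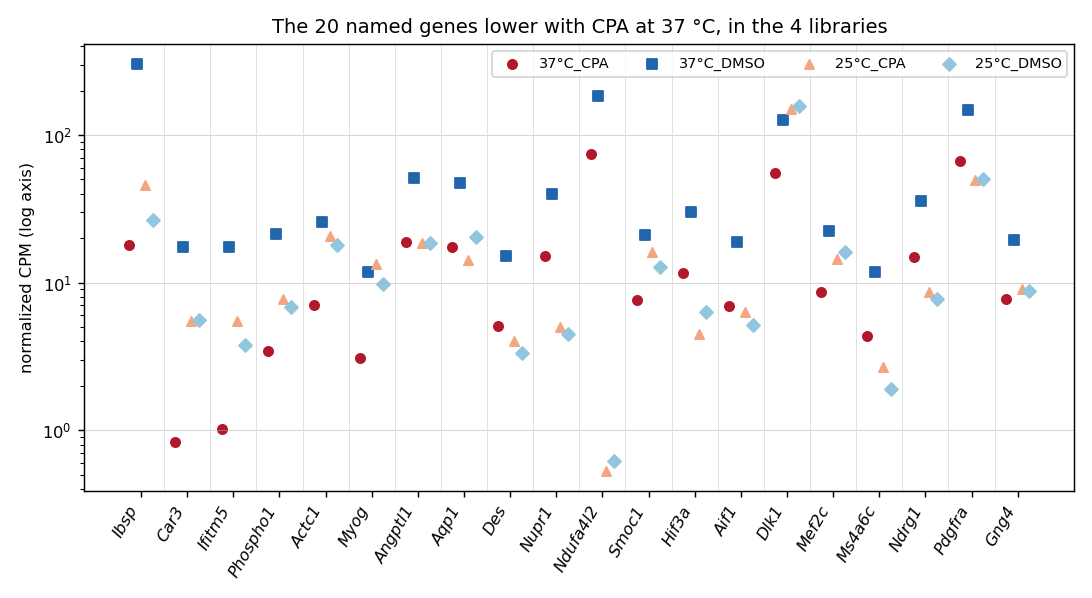
The 20 lowered genes named by rank run along the x axis, with the normalized CPM of each library on a log y axis, 1 marker per library and no replicate error. All 20 genes were chosen for a lower value in 37°C_CPA than in 37°C_DMSO, so that order follows from the choice. The 25 °C libraries lie within 2-fold of each other, below 1 CPM for Ndufa4l2 and above both 37 °C libraries for Dlk1.

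Few genes of the dental tissues themselves were called. Of 31 measured genes of the dental mesenchyme list, 2 were lower and 0 were higher, yet 30 of 31 lay below 0 (median -0.37). Pdgfra, a receptor for platelet-derived growth factor in mesenchyme, had 1043 counts in 37°C_CPA, against 2490 in 37°C_DMSO, and 746 in 25°C_CPA, against 740 in 25°C_DMSO. It fell 2.20-fold (95% interval 2.05 to 2.37), and 37°C_DMSO was the highest of the 4 libraries. The second called gene was Tnc. Pax9, a factor needed for teeth to pass the bud stage, had 635 counts in 37°C_CPA, against 978 in 37°C_DMSO (log2 fold -0.51), and Lhx8, a factor of dental mesenchyme, had 654 counts in 37°C_CPA, against 726 in 37°C_DMSO (log2 fold -0.04). Of 40 measured genes of the dental epithelium list 0 were called, and 26 of 40 lay below 0 (median -0.14). The lowest was Lef1 (log2 fold -0.99), which is described with the WNT genes below. Krt15, a basal keratin, had 6660 counts in 37°C_CPA, against 13667 in 37°C_DMSO, and 12884 in 25°C_CPA, against 17401 in 25°C_DMSO (log2 fold -0.92), and Trp63, the master factor of stratified epithelium, had 1664 counts in 37°C_CPA, against 2993 in 37°C_DMSO (log2 fold -0.73). In contrast, Krt5, a keratin of basal cells, had 9376 counts in 37°C_CPA, against 7513 in 37°C_DMSO (log2 fold 0.43), and Krt17, a keratin of embryonic and stressed epithelium, had 22159 counts in 37°C_CPA, against 18297 in 37°C_DMSO (log2 fold 0.39).

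Ambn, the enamel matrix gene ameloblastin, had 116 counts in 37°C_CPA, against 183 in 37°C_DMSO, and 1255 in 25°C_CPA, against 1297 in 25°C_DMSO (log2 fold -0.54 at 37 °C), and Nkx2-3, a homeobox gene, had 953 counts in 37°C_CPA, against 1262 in 37°C_DMSO, and 611 in 25°C_CPA, against 621 in 25°C_DMSO (log2 fold -0.29). Neither was called.

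Growth factor and WNT signaling genes leaned below 0 with few calls. Of 52 measured WNT genes 2 were lower and 0 were higher, and 46 of 52 lay below 0 (median -0.34). Of all measured genes 1.59% were lower, with 5.15% under 10 CPM, and 52.7% lay below 0. With at least 200 counts 0 WNT genes were lower. Tcf7, a transcription factor at WNT targets, had 71 counts in 37°C_CPA, against 159 in 37°C_DMSO and fell 2.07-fold (95% interval 1.55 to 2.78), and Fzd10, a WNT receptor, had 56 counts in 37°C_CPA, against 125 in 37°C_DMSO and fell 2.06-fold (95% interval 1.49 to 2.88). Both intervals reach below 2-fold. Lef1, a relative of Tcf7 that tooth germs need, had 632 counts in 37°C_CPA, against 1360 in 37°C_DMSO, and 606 in 25°C_CPA, against 540 in 25°C_DMSO (log2 fold -0.99), and Sfrp2, a secreted WNT antagonist, had 1171 counts in 37°C_CPA, against 2462 in 37°C_DMSO, and 1950 in 25°C_CPA, against 2029 in 25°C_DMSO (log2 fold -0.96), both just short of the call. Lef1 is also in the dental epithelium list and Sfrp2 in the dental mesenchyme list, so these are not separate results. Of 27 measured TGF-beta and IGF genes 0 were called and 22 of 27 lay below 0 (median -0.21). Its abundant members Igf2 and Igfbp5 lay below 0, with 8507 counts in 37°C_CPA, against 15645 in 37°C_DMSO for Igf2, an embryonic growth factor (log2 fold -0.76), and 8592 counts in 37°C_CPA, against 17899 in 37°C_DMSO for Igfbp5, which binds IGFs (log2 fold -0.94). Dlk1, an imprinted membrane protein of immature mesenchymal cells in the Notch and imprinted lists, had 859 counts in 37°C_CPA, against 2145 in 37°C_DMSO, and 2236 in 25°C_CPA, against 2298 in 25°C_DMSO. It fell 2.31-fold (95% interval 2.13 to 2.50) at 37 °C, and 37°C_CPA was the lowest of the 4 libraries.

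Hypoxia and glycolysis genes lay mostly below 0. Of 39 measured genes, 4 were lower and 0 were higher, and 37 of 39 lay below 0 (median -0.41). Of all measured genes 1.59% were lower, and 52.7% lay below 0. Ndrg1, a hypoxia-induced gene of differentiating cells, had 234 counts in 37°C_CPA, against 607 in 37°C_DMSO, and 129 in 25°C_CPA, against 113 in 25°C_DMSO, and fell 2.40-fold (95% interval 2.06 to 2.80). Bnip3, which directs mitochondria to autophagy in hypoxia, had 1004 counts in 37°C_CPA, against 2210 in 37°C_DMSO, and 672 in 25°C_CPA, against 618 in 25°C_DMSO, and fell 2.03-fold (95% interval 1.89 to 2.19). The other called genes were Aldoc, a glycolytic aldolase (87 counts in 37°C_CPA, against 240 in 37°C_DMSO), and Slc2a3, a glucose transporter (24 counts in 37°C_CPA, against 62 in 37°C_DMSO). Vegfa, the vessel growth factor, had 3914 counts in 37°C_CPA, against 7149 in 37°C_DMSO, and 1663 in 25°C_CPA, against 1657 in 25°C_DMSO (log2 fold -0.75). Other lowered genes, outside this list, are known from the hypoxia response. Ndufa4l2, a mitochondrial protein induced by HIF1, had 1170 counts in 37°C_CPA, against 3095 in 37°C_DMSO, and 8 in 25°C_CPA, against 9 in 25°C_DMSO, fell 2.44-fold (95% interval 2.28 to 2.61) at 37 °C and was near the floor at 25 °C. Hif3a, a regulator of the HIF response, had 181 counts in 37°C_CPA, against 509 in 37°C_DMSO, and 67 in 25°C_CPA, against 93 in 25°C_DMSO, and fell 2.60-fold (95% interval 2.19 to 3.09). Where the interval had to lie beyond 2-fold, 1 of the 4 calls of the list remained.

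Genes of lipid synthesis also lay mostly below 0. Of 35 measured genes of cholesterol and fatty acid synthesis 1 was lower and 0 were higher, and 33 of 35 lay below 0 (median -0.47, and -0.10 with CPA at 25 °C). Scd1, a desaturase of fatty acids, had 108 counts in 37°C_CPA, against 277 in 37°C_DMSO, and 166 in 25°C_CPA, against 188 in 25°C_DMSO, and fell 2.37-fold (95% interval 1.89 to 2.99). Insig1, which holds the SREBP activator in the endoplasmic reticulum, had 585 counts in 37°C_CPA, against 1188 in 37°C_DMSO, and 1991 in 25°C_CPA, against 2083 in 25°C_DMSO (log2 fold -0.91), and Hmgcs1, an early enzyme of cholesterol synthesis, had 2586 counts in 37°C_CPA, against 4712 in 37°C_DMSO, and 4178 in 25°C_CPA, against 4502 in 25°C_DMSO (log2 fold -0.75). Of 28 measured genes of lipid transport and oxidation 0 were called and 17 of 28 lay below 0 (median -0.12). In Scd1, Insig1 and Hmgcs1 both 25 °C libraries stood above 37°C_CPA. Car3, a carbonic anhydrase of muscle and fat, had 13 counts in 37°C_CPA, against 297 in 37°C_DMSO, and 83 in 25°C_CPA, against 82 in 25°C_DMSO. It fell 21.1-fold (95% interval 12.1 to 40.1), and its mm9 position is chromosome 3 from 14863538 to 14872351.

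The remaining lowered genes of the ranking had mixed roles. Angptl1, a secreted angiopoietin-like protein, had 294 counts in 37°C_CPA, against 872 in 37°C_DMSO, and 278 in 25°C_CPA, against 269 in 25°C_DMSO, and fell 2.74-fold (95% interval 2.40 to 3.14). Aqp1, a water channel, had 273 counts in 37°C_CPA, against 804 in 37°C_DMSO, and 214 in 25°C_CPA, against 297 in 25°C_DMSO, and fell 2.72-fold (95% interval 2.37 to 3.13). Nupr1, a stress-induced chromatin protein, had 235 counts in 37°C_CPA, against 677 in 37°C_DMSO, and 75 in 25°C_CPA, against 66 in 25°C_DMSO, and fell 2.66-fold (95% interval 2.29 to 3.10). Of the 37 measured genes of the integrated stress and unfolded protein response, Nupr1 was the only one called. Smoc1, a matricellular protein that modulates BMP signaling, had 120 counts in 37°C_CPA, against 354 in 37°C_DMSO, and 243 in 25°C_CPA, against 185 in 25°C_DMSO, and fell 2.72-fold (95% interval 2.21 to 3.38). Gng4, a G protein subunit, had 121 counts in 37°C_CPA, against 330 in 37°C_DMSO, and 135 in 25°C_CPA, against 129 in 25°C_DMSO, and fell 2.52-fold (95% interval 2.04 to 3.13). For all 5 genes both 25 °C libraries differed by less than 2-fold.

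Of the 212 lowered genes, 39 were at least 3-fold lower, 15 at least 4-fold lower, and 46 had an interval wholly beyond 2-fold. They were genes of low level, with a median of 4.91 CPM, against 26.4 CPM for all measured genes. Of 3085 measured genes under 10 CPM 5.15% were lower and 4.18% were higher, and of 812 genes over 200 CPM 0% were lower and 0.862% were higher. Of the 212 genes, 60 belonged to at least 1 of the 50 gene lists and 20 were predicted or unnamed. At 25 °C, 99 of the 212 were measured, and their median there was -0.08 on the log2 scale, with 1 higher and 0 lower. In 139 of the 212, 25°C_DMSO was at least 2-fold below 37°C_DMSO in normalized CPM. The 25 °C median therefore describes only the 99 measured genes and not the whole set.

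The genes raised outside the p53, repair and cell cycle groups were led by Ano3, Acaa1b, Celf5 and Cox6b2. Ano3, a membrane protein of the anoctamin family, had 214 counts in 37°C_CPA, against 4 in 37°C_DMSO, and 10 in 25°C_CPA, against 14 in 25°C_DMSO. It rose 57.9-fold (95% interval 22.3 to 215), a wide interval that rests on 4 counts in 37°C_DMSO. Its mm9 position is chromosome 2 from 110495358 to 110791080. Acaa1b, a peroxisomal thiolase of fatty acid oxidation, had 1030 counts in 37°C_CPA, against 79 in 37°C_DMSO, and 132 in 25°C_CPA, against 120 in 25°C_DMSO. It rose 14.1-fold (95% interval 11.2 to 18), and its mm9 position is chromosome 9 from 119057141 to 119066211. Celf5, an RNA-binding protein of the CELF family, had 339 counts in 37°C_CPA, against 53 in 37°C_DMSO, and 30 in 25°C_CPA, against 20 in 25°C_DMSO, and rose 6.93-fold (95% interval 5.17 to 9.44). Cox6b2, a testis form of a cytochrome oxidase subunit, had 1059 counts in 37°C_CPA, against 226 in 37°C_DMSO, and 150 in 25°C_CPA, against 133 in 25°C_DMSO, and rose 5.07-fold (95% interval 4.39 to 5.88). In these 4 genes 37°C_CPA stood above all 3 other libraries, and both 25 °C libraries differed by less than 2-fold. In Ano3 and Acaa1b 37°C_DMSO was the lowest of the 4 libraries in normalized CPM.

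Cox6b2 was the only raised gene among 97 measured genes of the respiratory chain, of which Ndufa4l2 was lower (median 0.16, with 26 of 97 below 0). Tnfrsf18, a TNF receptor of lymphocytes also known as GITR, had 243 counts in 37°C_CPA, against 51 in 37°C_DMSO, and 38 in 25°C_CPA, against 25 in 25°C_DMSO, and rose 5.16-fold (95% interval 3.80 to 7.12). Arntl2, a partner of CLOCK in the circadian clock, had 213 counts in 37°C_CPA, against 46 in 37°C_DMSO, and 14 in 25°C_CPA, against 5 in 25°C_DMSO, and rose 5.01-fold (95% interval 3.63 to 7.06), as the only called gene of 18 measured clock genes. Both genes had few counts in the other 3 libraries. Igsf9b, an adhesion protein of inhibitory synapses, had 297 counts in 37°C_CPA, against 69 in 37°C_DMSO, and 53 in 25°C_CPA, against 45 in 25°C_DMSO, and rose 4.66-fold (95% interval 3.58 to 6.15). Cpt1c, a brain form of carnitine palmitoyltransferase, had 775 counts in 37°C_CPA, against 228 in 37°C_DMSO, and 69 in 25°C_CPA, against 86 in 25°C_DMSO, and rose 3.68-fold (95% interval 3.17 to 4.29). In these 4 genes both 25 °C libraries were below 37°C_DMSO as well as below 37°C_CPA.

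Zgrf1, a helicase that acts in crosslink repair, had 431 counts in 37°C_CPA, against 121 in 37°C_DMSO, and 298 in 25°C_CPA, against 285 in 25°C_DMSO, and rose 3.86-fold (95% interval 3.15 to 4.76). Kank3, a cytoskeletal scaffold, had 396 counts in 37°C_CPA, against 118 in 37°C_DMSO, and 264 in 25°C_CPA, against 275 in 25°C_DMSO, and rose 3.63-fold (95% interval 2.95 to 4.50). In both genes 37°C_DMSO was the lowest of the 4 libraries. Exoc4, a subunit of the exocyst, had 1131 counts in 37°C_CPA, against 372 in 37°C_DMSO, and 331 in 25°C_CPA, against 322 in 25°C_DMSO, and rose 3.29-fold (95% interval 2.93 to 3.71). Snhg15, a host of small nucleolar RNAs, had 1213 counts in 37°C_CPA, against 423 in 37°C_DMSO, and 668 in 25°C_CPA, against 739 in 25°C_DMSO, and rose 3.11-fold (95% interval 2.78 to 3.48), with counts identical to those of Snora9 inside it. For Snhg15, too, the 25 °C libraries stood between 37°C_CPA and 37°C_DMSO.

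Ptprv, a receptor phosphatase and a p53 target in mice, rose 3.30-fold (95% interval 2.78 to 3.93), on 536 counts in 37°C_CPA, against 176 in 37°C_DMSO. Ogdhl, an enzyme similar to oxoglutarate dehydrogenase, rose 3.12-fold (95% interval 2.58 to 3.78), on 429 counts in 37°C_CPA, against 149 in 37°C_DMSO, and Slc2a9, a urate transporter, rose 3.26-fold (95% interval 2.48 to 4.33), on 214 counts in 37°C_CPA, against 71 in 37°C_DMSO. Svop, a synaptic vesicle protein, and Nkx2-9, a homeobox gene, were chosen after their values were seen. Svop had 63 counts in 37°C_CPA, against 0 in 37°C_DMSO, and 3 in 25°C_CPA, against 2 in 25°C_DMSO, which by the floor is at least 22.7-fold higher, and Nkx2-9 had 58 counts in 37°C_CPA, against 0 in 37°C_DMSO, and 2 in 25°C_CPA, against 0 in 25°C_DMSO, which is at least 20.9-fold higher. Their counting intervals reach down to 7.43-fold and 6.82-fold.

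**Figure D4:**
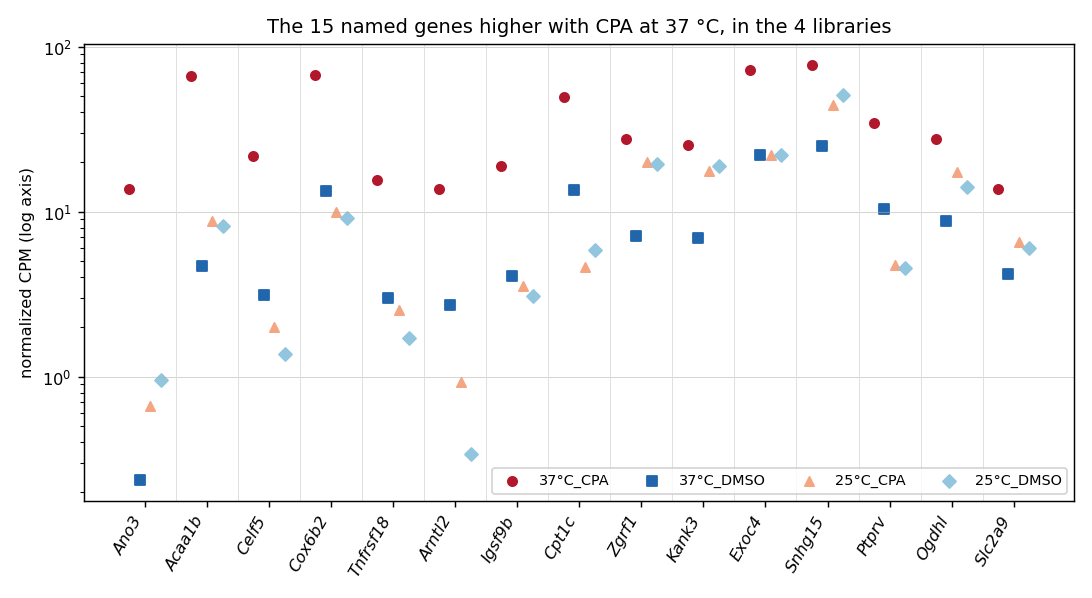
The 15 raised genes named by rank run along the x axis, with the normalized CPM of each library on a log y axis, 1 marker per library and no replicate error. In all 15 genes 37°C_CPA is the highest of the 4 libraries, and Ano3 has the widest gap, at 57.9-fold over 37°C_DMSO.

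The 187 genes still held members of the excluded processes, because the groups were compiled by hand. Examples, chosen after their values were seen, are Ccnf, which encodes cyclin F (598 counts in 37°C_CPA, against 242 in 37°C_DMSO), Dtl, which targets replication factors for destruction (1297 counts in 37°C_CPA, against 665 in 37°C_DMSO), Pclaf, which binds the replication clamp PCNA (5065 counts in 37°C_CPA, against 2156 in 37°C_DMSO), Rtel1, a helicase of telomeres and recombination (254 counts in 37°C_CPA, against 123 in 37°C_DMSO), Rbm38, an RNA-binding p53 target (956 counts in 37°C_CPA, against 400 in 37°C_DMSO), and Siva1, a pro-apoptotic p53 target (4058 counts in 37°C_CPA, against 2196 in 37°C_DMSO). Of the ranked raised genes above, at least Zgrf1, which acts in crosslink repair, and Ptprv, a p53 target, also belong to these processes. Absence from the groups does not place any other ranked gene outside these processes. The count of 187 is thus an upper count for genes outside these processes. Of the 187, 25 belonged to at least 1 of the 50 lists, 60 were predicted or unnamed genes and 24 shared all 4 counts with another gene. By size, 52 were at least 3-fold higher, 30 at least 4-fold higher, and 81 had an interval wholly beyond 2-fold. At 25 °C, 119 of the 187 were measured, and their median there was -0.01 on the log2 scale, with 0 higher and 1 lower.

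In some raised genes, as in Ano3, Acaa1b, Zgrf1, Kank3, Snhg15, Ogdhl and Slc2a9, 37°C_DMSO was the lowest library. The predicted genes Gm17511 and Gm10073, chosen after their values were seen, are further cases. Gm17511 had 5326 counts in 37°C_CPA, against 120 in 37°C_DMSO, and 4628 in 25°C_CPA, against 3276 in 25°C_DMSO, and Gm10073 had 223 counts in 37°C_CPA, against 4 in 37°C_DMSO, and 156 in 25°C_CPA, against 112 in 25°C_DMSO. Their folds at 37 °C were 48.1 and 60.4, and 37°C_DMSO was the library that stood apart from the other 3.

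The innate immune lists did not move as a block. Of 39 measured interferon response genes, 3 were higher and 0 were lower (median 0.05). Rsad2, which encodes the antiviral viperin, had 264 counts in 37°C_CPA, against 113 in 37°C_DMSO, and 5 in 25°C_CPA, against 6 in 25°C_DMSO and rose 2.53-fold (95% interval 2.02 to 3.18), Cmpk2, its neighbor in the genome, rose 2.19-fold (95% interval 1.5 to 3.25), and Cxcl10, a T cell chemokine, rose 2.03-fold (95% interval 1.64 to 2.52). Isg15, a ubiquitin-like protein of the response, had 2251 counts in 37°C_CPA, against 1873 in 37°C_DMSO (log2 fold 0.38). Of 29 measured inflammatory cytokine and prostaglandin enzyme genes, 1 was higher and 3 were lower (median -0.51, and -0.20 over the 19 genes with at least 200 counts). Ccl4, a macrophage chemokine, had 214 counts in 37°C_CPA, against 106 in 37°C_DMSO and rose 2.19-fold (95% interval 1.72 to 2.79), whereas Csf2, which encodes the cytokine GM-CSF, had 36 counts in 37°C_CPA, against 109 in 37°C_DMSO and fell 2.80-fold (95% interval 1.90 to 4.20). Tslp, an epithelial cytokine, had 289 counts in 37°C_CPA, against 708 in 37°C_DMSO, and 59 in 25°C_CPA, against 24 in 25°C_DMSO, and fell 2.26-fold (95% interval 1.97 to 2.60) at 37 °C, and Ccl20, a chemokine of dendritic cells, fell 2.26-fold (95% interval 1.42 to 3.67). In the antigen presentation list of 17 measured genes H2-Eb1, a class II chain (82 counts in 37°C_CPA, against 13 in 37°C_DMSO), and Tap1, a peptide transporter that is also in the p53 group, were higher, and Cd74, the class II invariant chain, was lower (53 counts in 37°C_CPA, against 161 in 37°C_DMSO).

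Other stress and metabolic lists were near the median of all genes. Of 47 measured genes of NRF2, glutathione and drug metabolism 2 were higher and 0 were lower (median 0.07). Gsta2, a glutathione transferase, had 384 counts in 37°C_CPA, against 194 in 37°C_DMSO, and 13 in 25°C_CPA, against 20 in 25°C_DMSO and rose 2.14-fold (95% interval 1.80 to 2.56), and Gsta3, another one, rose 4.69-fold (95% interval 2.47 to 9.66) on 52 counts in 37°C_CPA, against 12 in 37°C_DMSO. Nqo1, a classical NRF2 target, had 344 counts in 37°C_CPA, against 198 in 37°C_DMSO (log2 fold 0.91) and was not called. Of 21 measured heat shock genes 0 were called (median 0.02). Over 81 measured genes of cytosolic ribosomal proteins the median was 0.00 and Rps27l, which is itself a p53 target, was the only call (17323 counts in 37°C_CPA, against 8006 in 37°C_DMSO). Of the 50 lists as a whole, 40 had a median below that of all measured genes, 17 had lower calls without a higher one, and the lowest and highest medians were -0.96 and 0.45. Without scaling the medians of the interferon, NRF2 and heat shock lists were -0.06, -0.04 and -0.09, relative to -0.14 for all genes.

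Long genes had log2 folds further below 0 with CPA at 37 °C. Gene length was taken from GENCODE vM1 on mm9 and was known for 94.3% of the lowered genes and 93.3% of all measured genes. The median log2 fold was 0.03 over 1993 genes under 5 kb, -0.02 over 3287 genes of 20 to 50 kb, -0.07 over 987 genes of 100 to 200 kb and -0.18 over 574 genes over 200 kb. Of the genes over 200 kb 4.18% were lower and 1.39% were higher, whereas of those under 5 kb 1.76% were lower and 3.21% were higher. In 25°C_CPA against 25°C_DMSO the medians were -0.02 under 5 kb and -0.01 over 200 kb. Over the 376 genes over 200 kb with at least 200 counts the 37 °C median was -0.16, with 1.06% lower and 1.06% higher. At that minimum the 1427 genes under 5 kb had a median of 0.03, with 0.981% lower and 2.38% higher, and the bins between had 0.47% to 0.693% lower. The median length of the lowered genes was 18.2 kb, against 21.9 kb for all measured genes.

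**Figure D5:**
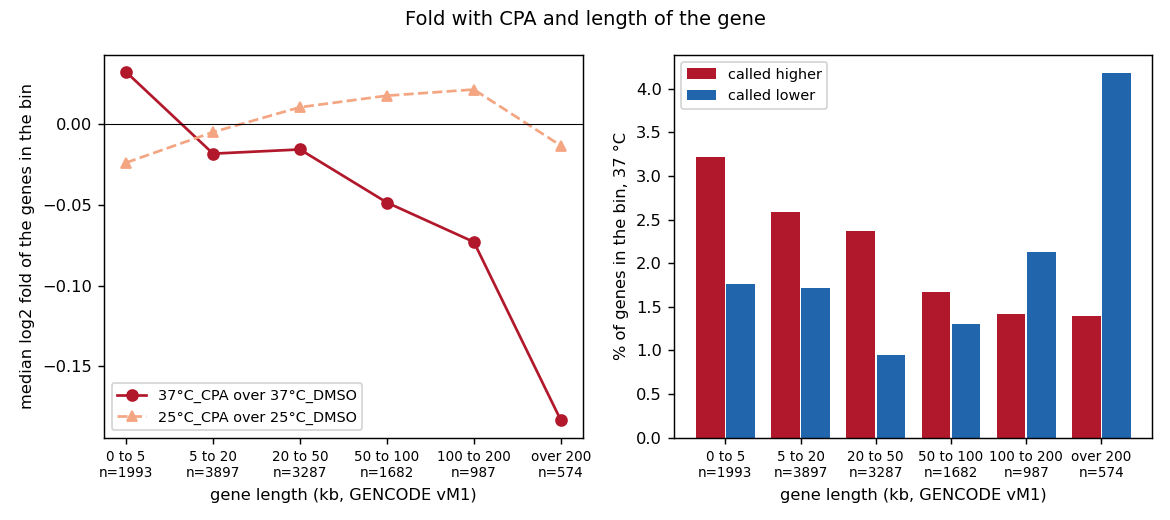
The left panel shows the median log2 fold of the genes in 6 bins of gene length (kb, x axis) with CPA at 37 °C (solid line) and at 25 °C (dashed line), and the right panel the share of genes in each bin called higher (red) or lower (blue) at 37 °C, with the number of genes under each bin and no replicate error. The 37 °C median is 0.03 in the shortest bin and -0.18 in the longest, while the 25 °C medians stay within 0.03 of 0.

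The letters around the starts of the lowered genes were compared with those of all genes for the 6 motifs. In a window of 250 bases before to 50 after the GENCODE vM1 gene start on mm9, known for 200 of the 212 lowered genes, a TATA box in either strand was found in 16% of the lowered genes, in 9.32% of the 161 raised genes outside the groups with a window and in 8.01% of all 12420 measured genes with one. A GC box was found in 46.5% of the lowered genes, 51.6% of the raised genes and 60.6% of all. The shares of the CAGCTG E-box were 19%, 16.1% and 14.2% in the same order, those of the RUNX site 12.5%, 13.7% and 12.2%, those of the MEF2 site 3.5%, 0.621% and 1.95%, and those of the p53 half-site 11%, 10.6% and 7.01%. A TATA box can lie within a MEF2 match, so these are not separate counts. Under 10 CPM, the range of level that holds most lowered genes, the TATA box was in 12.8% of the lowered genes, against 8.61% of all measured genes, and the GC box in 46.3%, against 54.7%. In the same range the E-box was in 17.4%, against 16.2%, the RUNX site in 14.1%, against 13.3%, and the p53 half-site in 12.8%, against 6.88%. The MEF2 site was in 2.01%, against 2.32%, which turns its order. At 10 CPM and over, with 51 lowered genes, the p53 half-site was in 5.88%, against 7.05%, and the RUNX site in 7.84%, against 11.9%. There the MEF2 site was in 7.84%, against 1.85%, the TATA box in 25.5%, against 7.84%, and the E-box in 23.5%, against 13.7%. The GC box was in 47.1%, against 62.3%. The order of the p53 half-site, RUNX and MEF2 shares thus depended on the level. In the RefSeq windows, known for 146 of the 212 lowered genes, the E-box was in 29.5% of the lowered, 20.4% of the raised and 17.5% of all genes. The RUNX site was there in 15.1%, 7.96% and 14%, and the TATA box in 19.2%, 7.08% and 9.1%. For these last motifs the raised genes lay below all genes in the RefSeq windows and above them in the GENCODE windows. These shares describe letters around annotated starts and were not tested.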

How the data were processed

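Total RNA of cultured tooth germs was isolated by the authors, who had the CAGE tags mapped on the mm9 genome and turned into start sites by SAMtools within MOIRAI. BWA 0.5.9 and the builds mm9 and GRCh38 stand in the submitters' processing notes with no role. How tags were summed per gene, and on which annotation, is not given in the sources used here. Raw counts of 15887 genes were deposited by the authors, and 14333 of the identifiers matched GENCODE vM1. The lowest count that any gene reached in its highest library was 5. No molecular identifiers are named for the CAGE counts, so intervals and floors cover counting error only, and with 1 library per condition no p-value was computed.

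Counts were divided by the library total times a TMM factor over the 4 libraries (1.02 in 37°C_CPA, 1.03 in 37°C_DMSO, 0.980 in 25°C_CPA and 0.967 in 25°C_DMSO, edgeR 4.0.16 in R 4.3.3), and CPM here means these values. Folds are ratios of normalized counts, and their 95% intervals are exact (Clopper-Pearson) for the binomial split of both counts. A count of 0 was replaced by 3. Calls needed a fold of 2 and 50 counts or more in whichever library was higher. The named genes were the first 20 lower and 15 higher genes outside the 3 groups with at least 200 counts, ranked by the interval bound nearest to 1 without predicted, microRNA or small nucleolar RNA genes, with the called, highest, lowest and most abundant members of the lists and genes that the study measured. The members and the lists were chosen with earlier results of these data known, and Mns1 and Gm5424, misplaced in the cell cycle group, were taken out of it after the values had been seen.

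Motifs were searched on both strands, in GENCODE vM1 windows added after it was seen that the RefSeq promoter table held only 146 of the 212 lowered genes. The printed windows are RefSeq's (GRCm38.p6). Alternatives were no scaling, the total count, DESeq2 1.42.0 size factors, TMM over the 37 °C libraries, Gapdh, 200 counts as the minimum, no minimum, 10 counts added, identical counts taken once, intervals beyond 2-fold, and folds of 1.5 and 3. Calculations used Python 3.11.15, numpy 2.4.6, pandas 2.3.3, SciPy 1.17.1 and matplotlib 3.10.9, and were tested on simulated data.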

Additional observations from a re-analysis of the deposited data

Results flagged for a closer look

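Tslp, an epithelial cytokine, was lower in 37°C_CPA than in 37°C_DMSO (log2 fold -1.18) and higher in 25°C_CPA than in 25°C_DMSO (log2 fold 1.26), with 289 counts in 37°C_CPA, against 708 in 37°C_DMSO, and 59 in 25°C_CPA, against 24 in 25°C_DMSO. The predicted gene Gm10221 was higher with CPA at 37 °C (log2 fold 3.80) and lower at 25 °C (log2 fold -4.68), with 271 counts in 37°C_CPA, against 21 in 37°C_DMSO, and 2 in 25°C_CPA, against 50 in 25°C_DMSO. Each condition has 1 library, and neither difference between the temperatures was tested.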

How the results depend on the processing

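No paired analysis was possible because each condition has 1 library. The numbers of higher and lower genes over all genes, and outside the p53, repair and cell cycle groups, stayed within 1.5 times of the main counts (320, 212, 187 and 212) with scaling to the total count, DESeq2 size factors, TMM over the 37 °C libraries or Gapdh, and with identical counts taken once. In that order, a minimum of 200 counts gave 206, 65, 91 and 65, no minimum 577, 541, 440 and 541, intervals beyond 2-fold 161, 46, 81 and 46, a fold of 1.5 877, 879, 630 and 876, and a fold of 3 96, 39, 52 and 39. Without scaling 331 genes were lower, 330 of them outside the groups, and with 10 counts added 123 in both cases. Among the called genes 60.2% were higher in the main calculation and 43.2% without scaling, with all-gene medians of -0.02 and -0.14. The log2 fold moved outside its main interval for Ndufa4l2 (-1.40) and Pdgfra (-1.26) without scaling, and for Ano3 (4.11) with 10 counts added. The list medians moved by less than the SD of their members under these alternatives, but medians near 0 changed sign. Without scaling these were the interferon (-0.06), NRF2 (-0.04), heat shock (-0.09), mitochondrial ribosomal (-0.03), solute carrier (-0.09) and ABC transporter (-0.08) lists, the last also with no minimum (-0.08), and with Gapdh the S100 (0.01) and cytosolic ribosomal (0.04) lists, the last also with TMM over the 37 °C libraries (0.02). Of the counts of called genes per list and alternative, 217 moved by over 1.5 times or to or from 0, and 983 did not. Without scaling, 5 WNT genes were lower in place of 2, 3 TGF-beta and IGF genes in place of 0, and 4 dental mesenchyme genes in place of 2, and with at least 200 counts 0 WNT genes were. Depth limits the calls of genes near 50 counts, and with 1 library per condition the spread between cultures is not known.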

Other observations

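Further groups held few called genes. Of 32 measured matrix metalloproteinase and inhibitor genes, none was higher and 3 were lower (median log2 fold -0.35), against 1.59% of all measured genes. These were Mmp10, which encodes stromelysin-2 (28 counts in 37°C_CPA, against 64 in 37°C_DMSO), Mmp16, a membrane-bound metalloproteinase (341 counts in 37°C_CPA, against 751 in 37°C_DMSO), and Adamts12, a secreted protease (93 counts in 37°C_CPA, against 223 in 37°C_DMSO). Of 19 measured imprinted growth genes, Dlk1 was the only call (median -0.37). Of 30 BMP and activin, 21 FGF and 14 hedgehog genes 0 were called, with medians of -0.21, -0.11 and -0.22. The 78 genes of mitochondrial ribosomal proteins held 0 calls at a median of 0.09.

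The following genes were chosen after their values were seen. Mcpt1, a mast cell protease, had 6 counts in 37°C_CPA, against 90 in 37°C_DMSO, and 0 in 25°C_CPA, against 0 in 25°C_DMSO. Fcrls, a receptor of microglia and macrophages, had 14 counts in 37°C_CPA, against 89 in 37°C_DMSO, and 0 in 25°C_CPA, against 2 in 25°C_DMSO, and F13a1, a coagulation factor chain made by macrophages, had 31 counts in 37°C_CPA, against 147 in 37°C_DMSO, and 4 in 25°C_CPA, against 8 in 25°C_DMSO. These 3 genes were lower in 37°C_CPA, by 13.9-fold, 5.87-fold and 4.38-fold, and all had few counts at 25 °C. In a list of other leukocytes that includes mast cell genes, 0 of 4 measured genes were called. Its median log2 fold was -0.27, with values from -0.74 to 0.62. Saa3, an acute phase protein, Serping1, the inhibitor of complement C1, and Chil1, a chitinase-like protein, fell 2.04-fold, 2.14-fold and 2.34-fold, on 314 counts in 37°C_CPA, against 693 in 37°C_DMSO for Saa3, 456 counts in 37°C_CPA, against 1057 in 37°C_DMSO for Serping1 and 247 counts in 37°C_CPA, against 627 in 37°C_DMSO for Chil1. On the raised side, Krt16, a keratin of stressed epidermis, had 1668 counts in 37°C_CPA, against 860 in 37°C_DMSO, and 142 in 25°C_CPA, against 82 in 25°C_DMSO, Gpx2, an epithelial glutathione peroxidase, had 741 counts in 37°C_CPA, against 382 in 37°C_DMSO, and 18 in 25°C_CPA, against 3 in 25°C_DMSO, and Crabp1, which binds retinoic acid, had 3157 counts in 37°C_CPA, against 1654 in 37°C_DMSO, and 437 in 25°C_CPA, against 485 in 25°C_DMSO. They rose 2.10-fold, 2.10-fold and 2.07-fold at 37 °C.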
